A study of Mus musculus with 3 samples.

Results

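The genes that shape, remove and renew mitochondria were examined in RNA from mouse medial prefrontal cortex (mPFC), part of the frontal lobe. They are 10 genes chosen by name from the 46073 rows of the gene table: the fusion genes Mfn1, Mfn2 and Opa1, the fission genes Dnm1l, Fis1 and Mff, the mitophagy gene Pink1 and the biogenesis genes Ppargc1a, Tfam and Nrf1. Each was found by its Ensembl identifier through its mouse symbol, and all 10 had exactly 1 row. The mice were untreated (naïve) C57BL/6 animals aged 3 months, and the series holds a single condition with 1 sample each of methylated DNA, input DNA and RNA. The design text names 3 replicates for RNA-seq, but the table has 2 value columns that are equal in 46073 of 46073 rows, so each gene has 1 value. No value has an error, no difference has a replicate check, and no test could be made. Levels are in FPKM, fragments scaled by transcript length and by the number of mapped fragments, so they can be ranked between genes of the same table.

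Mitochondria form a network that is joined by fusion and divided by fission. Mitofusins join the outer membranes and Opa1 the inner ones, while the dynamin-related GTPase Drp1 is drawn from the cytosol to outer membrane adaptors and constricts the organelle. Damaged mitochondria are marked by the kinase Pink1 for removal by autophagy, which is called mitophagy. Replacement depends on the coactivator PGC-1alpha, on transcription factors such as nuclear respiratory factor 1, and on Tfam. Tfam packages mitochondrial DNA and acts in its transcription. Neurons are known for moving mitochondria over long axons and dendrites, where fission and fusion set the size of what is moved.

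The tissue label was checked against marker genes of brain cell types and of tissue outside the brain. No marker of a brain region was among them, so the check does not bear on which region was taken. All 8 neuron markers were at 1 FPKM or more (21.2 to 1279 FPKM), as were all 4 each for astrocytes (14.6 to 613 FPKM), oligodendrocytes (30.8 to 912 FPKM), microglia (7.66 to 39.7 FPKM) and endothelium (1.40 to 10.8 FPKM). Of the markers of tissue outside the brain, 0 of 3 for liver, 1 of 4 for muscle (Acta1, 4.75 FPKM) and 1 of 2 for brown fat (Cidea, 2.26 FPKM) reached 1 FPKM. The members are not markers of a cell type, and in a piece of whole tissue a lower level may mean fewer cells of a type or less RNA per cell, which cannot be told apart.

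All 10 members were at 1 FPKM or more, the level at which a gene was called detected, against 58.6% of 20635 protein-coding rows and 31.5% of all rows. At 10 FPKM or more there were 8 members, against 29.1% of protein-coding rows, and at 100 FPKM or more there were 3, Mff, Pink1 and Fis1, against 2.82%. The median of the members was 43.6 FPKM, 4.43 times the median of 9.86 FPKM over the 12085 detected protein-coding genes. From Mff at the top to Nrf1 at the bottom the members spanned 39.4-fold. The upper 7 lay above the upper quartile of detected protein-coding genes (23.7 FPKM), Opa1 lay just under it, and Ppargc1a and Nrf1 lay below the median.

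**Figure D1:**
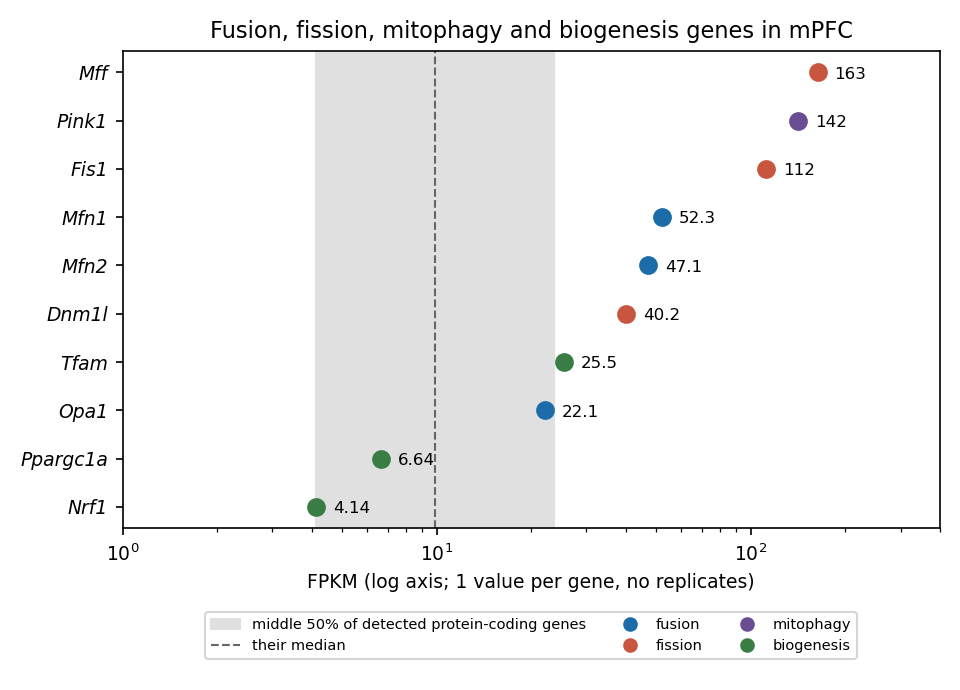
Level of each gene in FPKM on a log axis, 1 value per gene with no replicates, coloured by role; the grey band is the middle 50% of detected protein-coding genes (4.13 to 23.7 FPKM) and the dashed line their median (9.86 FPKM). Mff, Pink1 and Fis1 stand between 112 and 163 FPKM, and Ppargc1a and Nrf1 are the only members left of the median.

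In order of level, neighbouring members were mostly close together. Mff was 1.15 times Pink1, Pink1 1.27 times Fis1, Mfn1 1.11 times Mfn2, Mfn2 1.17 times Dnm1l, and Tfam 1.15 times Opa1. With no replicates, none of these neighbours can be called different. The wider steps were those from Fis1 to Mfn1 (2.14-fold), from Dnm1l to Tfam (1.58-fold), from Opa1 to Ppargc1a (3.33-fold) and from Ppargc1a to Nrf1 (1.60-fold).

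The fusion genes stood at moderate to high levels, with the 2 mitofusins nearly equal. Mfn1, an outer membrane GTPase that tethers mitochondria (ENSMUSG00000027668, chromosome 3, 32529443 to 32579225, GRCm38), was at 52.3 FPKM and above 89.8% of detected protein-coding genes. Mfn2, its paralog, which also links mitochondria to the endoplasmic reticulum (ENSMUSG00000029020, chromosome 4, 147873586 to 147904909), was at 47.1 FPKM. Mfn1 was 1.11 times Mfn2, the smallest difference between consecutive members. Opa1, the GTPase of inner membrane fusion and cristae shape (ENSMUSG00000038084, chromosome 16, 29579281 to 29663127), was at 22.1 FPKM, 2.37-fold below Mfn1 and 2.13-fold below Mfn2. Of the proteases that cleave Opa1, Yme1l1 was at 14.9 FPKM, 3.68-fold above the stress-activated Oma1 at 4.06 FPKM. The annotated span of Mfn1 overlaps the end of Gnb4, a G protein subunit gene listed at 6.20 FPKM, and whether counting used strand is not given in the sources used here, so reads from the shared stretch cannot be assigned with certainty.

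The fission genes held the highest member, and the 2 adaptors stood above the GTPase they act with. Mff, the outer membrane receptor for Drp1 (ENSMUSG00000026150, chromosome 1, 82724890 to 82752390), was at 163 FPKM, above 97.5% of detected protein-coding genes and at place 303 from the top of all protein-coding rows. The long non-coding RNA gene C430014B12Rik, which overlaps its first bases, was listed at 0.156 FPKM. Another such gene inside its span, Gm39668, matched no row of the table, so any share of its reads in the Mff value is unknown. Fis1, a small tail-anchored outer membrane protein that can bind Drp1 (ENSMUSG00000019054, chromosome 5, 136953275 to 136966234), was at 112 FPKM, 1.46-fold below Mff. Dnm1l, which encodes Drp1 (ENSMUSG00000022789, chromosome 16, 16312228 to 16359038), was at 40.2 FPKM. The other adaptors of Drp1 were far lower: Mief1 was at 3.42 FPKM, 47.7-fold below Mff and the widest of the 24 gene pairs compared, and Mief2 was at 6.44 FPKM, 1.88-fold above Mief1. Within the dynamin family, Dnm1l was 3.16-fold above Dnm2, the widely expressed dynamin (12.7 FPKM), and 2.39-fold above Dnm3 (16.8 FPKM). It was 10.7-fold below Dnm1, the neuronal dynamin of synaptic vesicle endocytosis (429 FPKM).

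Across the roles, Dnm1l lay close to the mitofusins and above Opa1. Mfn2 was 1.17 times Dnm1l, and Dnm1l was 1.82 times Opa1. The 3 fission members summed to 315 FPKM and the 3 fusion members to 122 FPKM, a ratio of 2.59 between summed levels, and Dnm1l gave 40.2 FPKM of the fission sum. These are RNA levels, and the proteins were not measured.

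The mitophagy kinase was the second highest member. Pink1, the kinase that accumulates on depolarised mitochondria (ENSMUSG00000028756, chromosome 4, 138313409 to 138326296), was at 142 FPKM, above 97.0% of detected protein-coding genes. The mitophagy receptor genes Bnip3 and Bnip3l, whose products bind the autophagy machinery directly, were at 47.7 and 46.6 FPKM and within 1.02-fold of each other.

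The biogenesis genes were the low end of the group, except for Tfam. Ppargc1a, which encodes PGC-1alpha (ENSMUSG00000029167, chromosome 5, 51454249 to 52115853), was at 6.64 FPKM, above 38.1% of detected protein-coding genes. It was 4.12-fold above its paralog Ppargc1b at 1.61 FPKM and 1.10 times the third family member, Pprc1, at 6.03 FPKM. Nrf1, nuclear respiratory factor 1 (ENSMUSG00000058440, chromosome 6, 30047985 to 30153458), was lowest at 4.14 FPKM, above 25.1% of detected protein-coding genes. Gabpa, the DNA-binding subunit of nuclear respiratory factor 2, was 1.93-fold above Nrf1 at 7.998 FPKM. Tfam (ENSMUSG00000003923, chromosome 10, 71225468 to 71238328) was at 25.5 FPKM, 6.16-fold above Nrf1 and 3.84-fold above Ppargc1a.

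Tfam was also higher than its partners in mitochondrial transcription, though by less than 2-fold for Polrmt. It was 1.83 times Polrmt, the mitochondrial RNA polymerase (14.0 FPKM), and 6.02-fold above Tfb2m, the initiation factor (4.24 FPKM). Among nuclear receptors that PGC-1alpha coactivates, Esrra was at 17.9 FPKM, 2.69-fold above Ppargc1a and 4.66-fold above Esrrg at 3.83 FPKM. A mitochondrial readout of Tfam could not be taken from this table, since 8 of 13 mitochondrially encoded mRNAs are listed at 0.

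**Figure D2:**
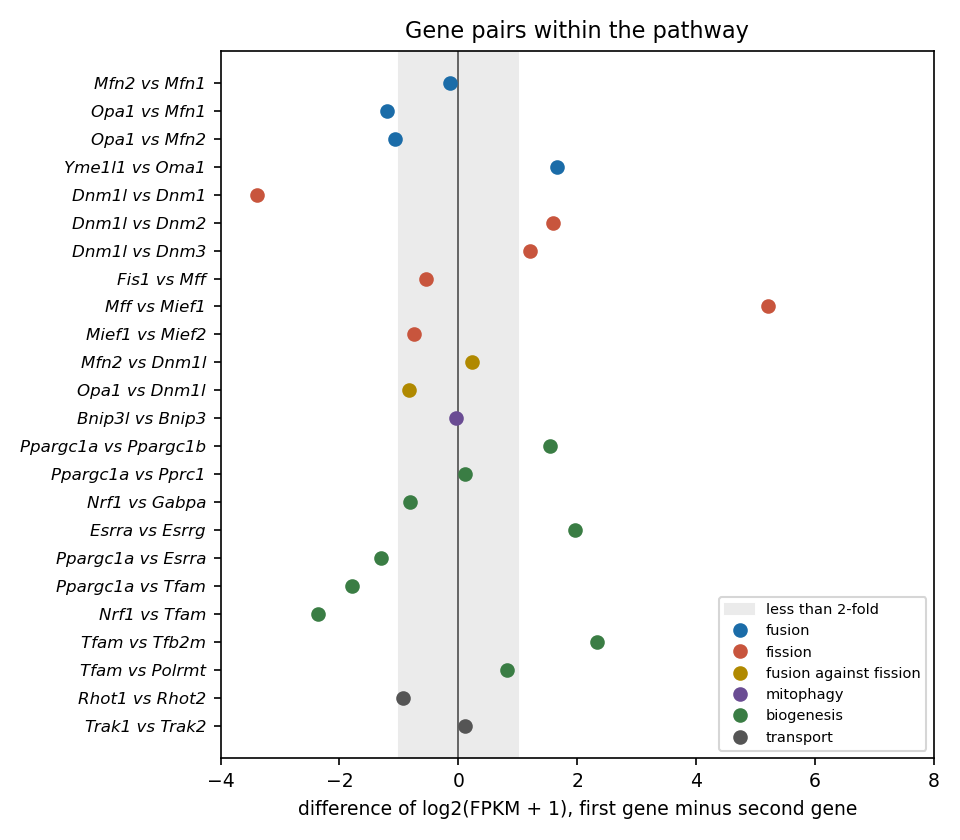
Difference of log2(FPKM + 1) between the genes of 24 pairs, first gene minus second, coloured by role; the grey band covers differences under 2-fold. Mff over Mief1 lies farthest right, Dnm1l against Dnm1 farthest left, and 11 pairs lie inside the band.

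Of the 24 pairs, 13 were at least 2-fold apart on the log2(FPKM + 1) scale and 11 were not. The pairs under 2-fold included Mief1 and Mief2, Opa1 and Dnm1l, Nrf1 and Gabpa, and Tfam and Polrmt. They also included both mitofusins, Fis1 and Mff, and Bnip3 and Bnip3l. The transport adaptors Trak1 (25.9 FPKM) and Trak2 (24.1 FPKM), which link mitochondria to kinesin, were under 2-fold as well. Rhot2, an outer membrane GTPase that anchors these adaptors, was 1.94-fold above Rhot1, at 40.7 and 21.0 FPKM.

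The members were set beside 120 other genes of 7 pathway lists, of which 113 were detected and 7 were not, against the 58.6% of protein-coding rows detected. Their median was 21.5 FPKM. In the fission list Mff and Fis1 were above all 16 other genes, and 1 gene was above Dnm1l. That gene was Ppp2r2b, a regulatory subunit of the phosphatase PP2A, at 47.2 FPKM. Mtfp1 at 35.7 and Marchf5 at 32.9 FPKM followed. The list's median was 17.7 FPKM, and 15 of 16 passed 1 FPKM. Mtfr2 (0.0759 FPKM) was under 1 FPKM and Mtfr1 was at 2.57 FPKM.

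In the list of fusion and inner membrane shape, 15 of 16 other genes passed 1 FPKM, and the median was 22.6 FPKM. Mfn1 and Mfn2 each had 2 of the 16 above them, and Opa1, with 8 above it, was in the middle. Phb2, a prohibitin scaffold of the inner membrane, was highest at 69.6 FPKM, with Stoml2 at 52.9 and Chchd6, a subunit of the cristae junction complex, at 40.9 FPKM. Pld6, the mitochondrial phospholipase, was under the floor at 0.2996 FPKM, and Apool was at 2.48 FPKM.

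All 18 other mitophagy genes passed 1 FPKM, their median was 30.3 FPKM, and 2 of them were above Pink1. These were Sqstm1, the autophagy receptor p62, at 334 FPKM and Fkbp8, an outer membrane receptor, at 156 FPKM. Nbr1, another autophagy receptor, was at 60.4 FPKM. The lowest were Bcl2l13, an outer membrane receptor gene, at 5.25 FPKM and Optn, an autophagy receptor gene, at 5.78 FPKM.

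The biogenesis regulators had the lowest median of the 7 lists, at 5.47 FPKM, with 19 of 22 other genes detected. Ppargc1a had 8 of the 22 above it and Nrf1 had 14. Mef2c, a transcription factor of excitatory neurons, was highest at 101 FPKM, followed by the corepressor gene Ncor1 at 71.2 and Mef2d at 45.8 FPKM. Perm1, a partner of PGC-1 in muscle, was at 0.395 FPKM, Esrrb at 0.473 and Ppara at 0.725 FPKM, and these were the 3 under 1 FPKM.

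In the list of mitochondrial DNA maintenance and transcription, 18 of 19 other genes passed 1 FPKM, the median was 5.98 FPKM, and 2 genes were above Tfam. Slirp, which stabilises mitochondrial mRNA, was at 62.3 FPKM and Polg, the catalytic subunit of the mitochondrial DNA polymerase, at 55.8 FPKM, with Mterf3 next at 18.1 FPKM. Polg2, the accessory subunit of that polymerase, was at 1.15 FPKM, and Mterf1a was under the floor at 0.658 FPKM.

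Lists with no member gave a scale for mitochondrial and transport genes as a whole. All 17 genes for outer membrane, import and matrix proteins passed 1 FPKM. Their median was 49.9 FPKM, and they ranged from the import genes Timm50 at 18.2 and Timm44 at 25.7 FPKM to the respiratory genes Sdha at 267, Atp5f1a at 432 and Cox4i1 at 668 FPKM. Mff, Pink1, Fis1 and Mfn1 were above that median and the other members below it. In the transport list 11 of 12 genes passed 1 FPKM and the median was 42.6 FPKM, led by the neuronal kinesin genes Kif5a at 402 and Kif5c at 150.4 FPKM and by Fez1 at 132 FPKM. Rhot1 and Disc1 (0.444 FPKM) were lowest.

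**Figure D3:**
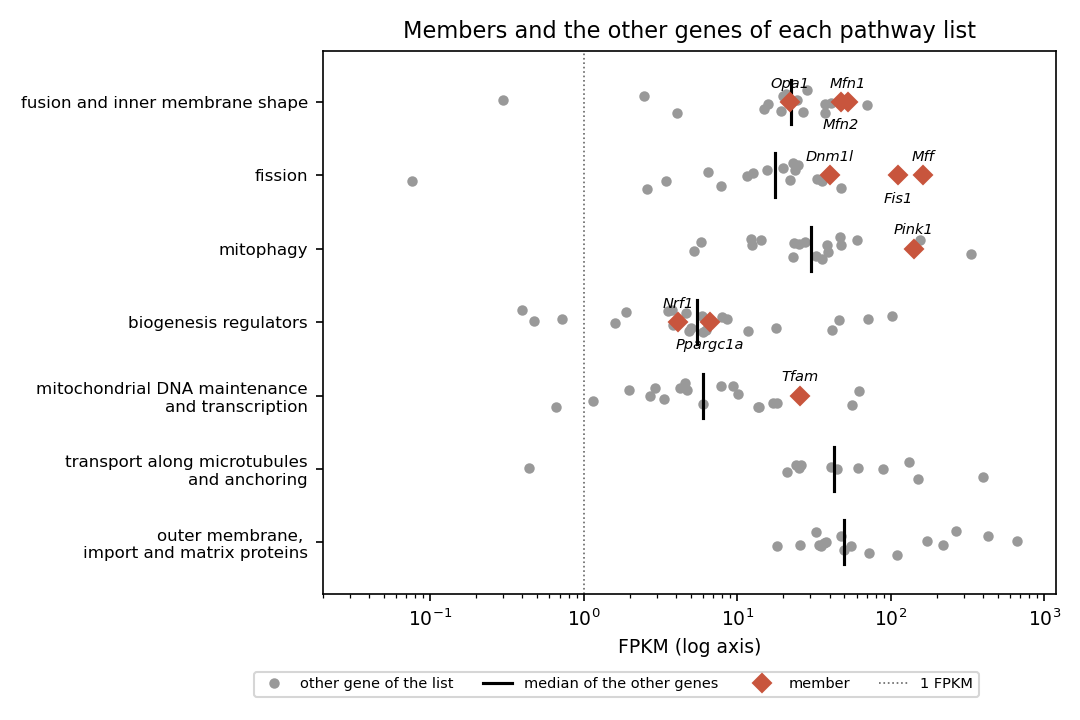
FPKM on a log axis for the genes of 7 pathway lists: grey points are the other genes, black lines their median, diamonds the members and the dotted line 1 FPKM; vertical jitter carries no meaning. Mff and Fis1 lie right of every other fission gene, while Ppargc1a and Nrf1 lie inside the biogenesis list on either side of its median of 5.47 FPKM.

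The series is about methylated regions, and cytosine methylation in mammals falls mainly on CpG dinucleotides, so the CpGs of the members' promoters were counted. RefSeq windows of 300 bases (250 before and 50 after a start site, GRCm38.p6) were at hand for all 10 members, 16 windows in all, and windows of the same gene can overlap. The stretches before the first annotated base are shown for the 3 highest members and for the lowest, 5′ to 3′ on the gene's strand, with each CpG in capitals. They are chr1:82724640-82724889 on the plus strand, chr4:138326297-138326546 on the minus strand, chr5:136953025-136953274 on the plus strand and chr6:30047738-30047984 on the plus strand.
Mff: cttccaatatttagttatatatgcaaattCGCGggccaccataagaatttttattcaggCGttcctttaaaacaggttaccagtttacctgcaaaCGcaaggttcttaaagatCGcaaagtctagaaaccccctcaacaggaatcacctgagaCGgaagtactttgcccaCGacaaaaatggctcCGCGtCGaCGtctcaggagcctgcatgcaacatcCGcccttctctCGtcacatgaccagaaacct
Pink1: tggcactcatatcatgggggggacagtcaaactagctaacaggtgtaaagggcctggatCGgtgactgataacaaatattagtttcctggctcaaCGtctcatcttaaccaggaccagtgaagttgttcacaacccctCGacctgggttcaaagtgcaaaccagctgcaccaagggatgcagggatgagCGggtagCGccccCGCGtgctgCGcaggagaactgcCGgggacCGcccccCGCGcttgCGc
Fis1: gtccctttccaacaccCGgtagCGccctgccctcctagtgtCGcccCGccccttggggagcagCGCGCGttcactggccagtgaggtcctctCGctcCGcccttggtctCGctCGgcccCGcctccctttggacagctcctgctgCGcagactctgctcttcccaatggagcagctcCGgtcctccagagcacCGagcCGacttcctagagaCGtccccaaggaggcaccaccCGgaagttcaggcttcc
Nrf1: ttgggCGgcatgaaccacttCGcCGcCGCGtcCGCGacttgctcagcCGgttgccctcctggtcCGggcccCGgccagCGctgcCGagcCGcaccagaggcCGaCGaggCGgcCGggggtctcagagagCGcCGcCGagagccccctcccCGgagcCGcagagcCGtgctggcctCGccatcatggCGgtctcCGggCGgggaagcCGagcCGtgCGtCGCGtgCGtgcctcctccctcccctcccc

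The printed stretches hold 13 CpGs for Mff, 13 for Pink1, 18 for Fis1 and 33 for Nrf1. Over the full windows of 300 bases, the first start of Nrf1 had 43 CpGs, more than 96.6% of 20204 windows of protein-coding genes, although Nrf1 was the lowest member. The first starts of Mff and Pink1 had 18 CpGs each and that of Fis1 had 21. Ppargc1a stood apart with 5 CpGs in its only window, whose start lies 548128 bases inside the annotated gene, and the outermost start of the gene has no window here. The FPKM is for the whole gene and does not say which start was used. The second windows of Fis1, 8802 bases into the gene, and of Nrf1, 28336 bases in, were also CpG-poor, with 8 and 2.

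Counted over windows, 11 of the members' 16 had more CpGs than the median of 14 for protein-coding genes, and their own median was 19.5. Windows of detected protein-coding genes had a median of 20 (12634 windows) and those of other protein-coding genes a median of 4 (7570 windows). The members' windows were thus close to those of detected genes in general. Methylation itself was not analysed here.

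**Figure D4:**
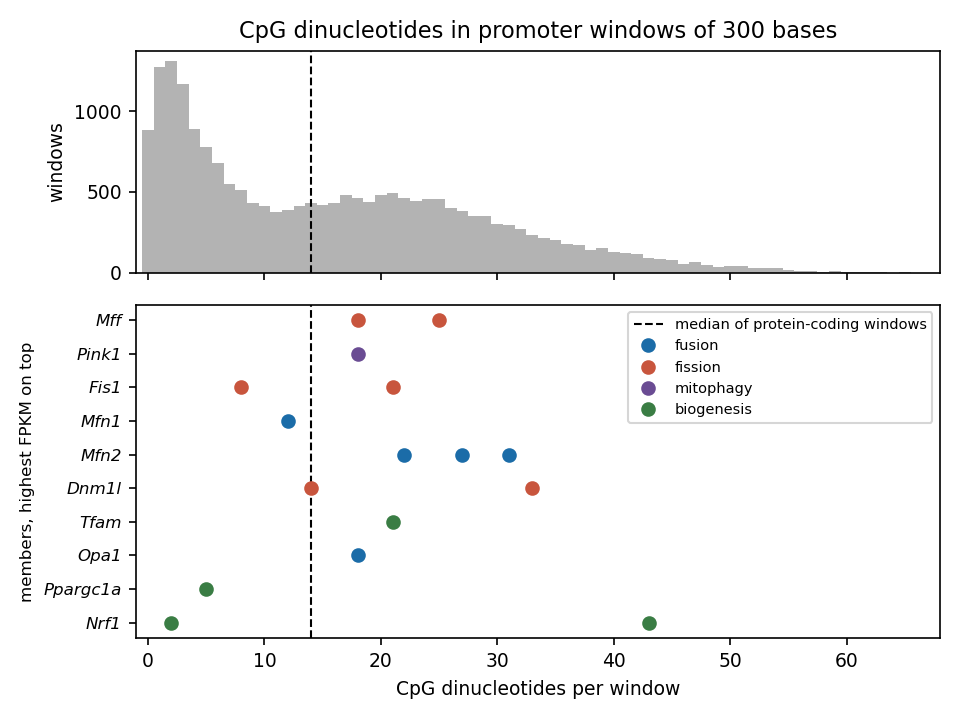
CpG dinucleotides per promoter window of 300 bases, above for 20204 windows of protein-coding genes and below for the 16 windows of the members, highest FPKM on top, coloured by role; dashed lines mark the median of 14. Nrf1 holds both the highest (43) and the lowest (2) window, and the only Ppargc1a window has 5.

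Because nuclear respiratory factors are known to bind promoters of mitochondrial genes, the windows were searched on both strands for 6 short motifs. The palindrome of nuclear respiratory factor 1, spelled out in capitals at the Opa1 site shown further on, was found in 1 of 16 member windows, that of Opa1, against 0.971% of 32841 windows of all genes. The shorter core GCGCANGC, which the palindrome contains, was in 3 of 16 (Mfn2, Opa1 and Pink1), against 9.96%. The ETS motif CCGGAAG, read by the Gabpa product among other factors, was in 5 of 16 windows from 4 genes (Dnm1l, Fis1, Mfn1 and Tfam), against 8.86%. Among windows of protein-coding genes the shares were higher, at 1.37% for the palindrome, 13.6% for the core and 11.8% for the ETS motif. No member window held both the palindrome and the ETS motif.

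The sites are shown with 8 bases on either side, 5′ to 3′ on the gene's strand, with the motif in capitals, to let the exact matches be read beside the near match of Pink1. The Opa1 site is at chr16:29579267-29579292 (plus strand), 59 bases before the start used by its window and across the gene's first annotated base, and the Pink1 site at chr4:138326289-138326314 (minus strand). The Pink1 site differs from the palindrome by A5T, with the palindrome's base first and positions counted from 1 at its 5′ end.
Opa1: ggctccccGCGCATGCGCatgtcatc
Pink1: cgccccccGCGCTTGCGCacaggcgc

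The ETS sites of Tfam, at chr10:71238077-71238099 (minus strand), Mfn1, at chr3:32529430-32529452 (plus strand), and the first start of Fis1, at chr5:136953249-136953271 (plus strand), lie before the start used by their window. The Tfam start lies 284 bases inside the annotated gene, so its site is within the gene, and the Mfn1 motif spans the gene's first annotated base. That of Dnm1l, at chr16:16358549-16358571 (minus strand), lies after the start of its window and on the opposite strand. The start of that Dnm1l window lies 463 bases inside the annotated gene, and the gene's other window, nearer its first base, has no ETS match. The second Fis1 window, whose start lies 8802 bases inside the gene, holds another ETS site.
Tfam: gccgcggaCCGGAAGtccgggct
Mfn1: ccgaagcgCCGGAAGtagccgcc
Fis1: ggcaccacCCGGAAGttcaggct
Dnm1l: gtcgcttcCTTCCGGccgctgag

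The GC box GGGCGG was in 12 of 16 windows, against 35.7% of all windows and 47.4% of windows of protein-coding genes, and Ppargc1a was the only member with it in no window. The TATA box TATAAA was in 1 of 16, the second Nrf1 window, against 13.6%, and the cyclic AMP element TGACGTCA in 0 of 16, against 1.79%. A match is a run of letters and not a binding site, and binding was not measured. Members with an ETS match ranged from 25.5 to 112 FPKM and those with the NRF1 core from 22.1 to 142 FPKM.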

How the data were processed

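RNA-seq of mouse mPFC was analysed. The methylated and input DNA were not analysed here. The labels' protocols name Tri-reagent extraction, a DNase step and an Illumina TruSeq library kit. Per the submitters' processing notes, the authors used CASAVA 1.8.2, TopHat and Cufflinks with mm10; other versions, annotation, strand setting and the combining of replicates were not stated there. The deposited unit is FPKM per Ensembl gene, computed by the authors. FPKM depends on the assumed transcript length and isoform mix, and without a known depth no counting interval could be formed. Both value columns are equal and were used as 1 sample.

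Symbols came from a table of Ensembl identifiers (45139 of 46073 rows named), and gene classes, coordinates and promoters from RefSeq for GRCm38.p6, the assembly of mm10, matched by symbol. A gene was called detected at 1 FPKM, and pairs were called apart at 2-fold on the log2(FPKM + 1) scale, which understates differences of low genes. Percentiles are shares of the detected protein-coding rows below a gene. Named genes were all members, all genes of the pairs, and the 3 highest and 2 lowest other genes of each pathway list; Ppara, Gnb4, C430014B12Rik, Gm39668 and the markers were named besides. A gene of the planned lists and pairs is not reported here and is left out of their counts. The members, lists and pairs were chosen with earlier results of these data known. Rank, pair and motif code was tested on simulated data. Software was Python 3.11.15 with pandas 2.3.3, numpy 2.4.6 and matplotlib 3.10.9.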

Additional observations from a re-analysis of the deposited data

How the results depend on the processing

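The table has 1 value per gene, so no result has a replicate check and no library could be left out. No paired analysis was possible because the result comes from no test and the columns carry no replicate numbers. The number of members at the floor or above was 10, 9 and 8 at floors of 0.1, 5 and 10 FPKM, and 10 at 1 TPM. The share of all protein-coding rows was 29.1% at 10 FPKM. It was not computed at 0.1 or 5 FPKM or at 1 TPM, so the counts there have no background beside them. The median of the members was 55.4 after rescaling all rows to a common total (TPM) and 37.3 FPKM as a geometric mean. It was 111 when mitochondrially encoded genes were left out before rescaling. All rows of these genes together held 50.04% of the summed FPKM. The 13 mRNAs among them, with mt-Nd1 highest at 4266 FPKM, were a small part of that share. Rescaling leaves every ratio between genes as it was. The median percentile of the members was 87.0 among detected protein-coding rows, 92.4 among all protein-coding rows and 96.0 among all rows. Each member's percentile was higher against the wider backgrounds, which follows from the rows these add, most of them under 1 FPKM. The count of pairs apart was 13 with a pseudocount of 1, with one of 0.1 and with none. Biogenesis regulators at the floor or above were 12 of 22 at 5 FPKM and 6 of 22 at 10 FPKM. Genes of mitochondrial DNA maintenance were 10 of 19 and 7 of 19. At 10 FPKM the biogenesis regulators were thus close to the 29.1% of protein-coding rows, and the maintenance genes somewhat above it. Counts of the other lists stayed within 1.5 times. Looking only before the start left the ETS motif in 3 of 16 windows, beside 6.91% of all windows and 9.23% of windows of protein-coding genes. With 1 mismatch allowed, 2 windows held the NRF1 palindrome, 13 its core, 12 the ETS motif, 4 the cyclic AMP element and 9 the TATA box, beside 6.33%, 51.0%, 60.0%, 12.5% and 69.8% of all windows.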

Other observations

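Another gene carries the same short name as nuclear respiratory factor 1 in some of the literature. Nfe2l1, a transcription factor of proteasome genes and also called NRF1, was at 97.7 FPKM, and Nfe2l2, the antioxidant regulator known as NRF2, was at 5.08 FPKM. Keap1, the ligase adaptor that restrains Nfe2l2, was at 16.3 FPKM. The values reported above for Nrf1 and Gabpa are those of the respiratory factors, taken by Ensembl identifier. These 3 genes were chosen after the values of the members had been seen.

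Of the 13 mitochondrially encoded mRNAs, 5 had values above 0, all of them for subunits of complex I. They were mt-Nd1 at 4266 FPKM, mt-Nd2 at 3195, mt-Nd6 at 2898, mt-Nd5 at 1745 and mt-Nd3 at 18.5 FPKM. The other 8 are listed at 0: mt-Nd4 and mt-Nd4l, which are also of complex I, mt-Cytb, and all those for cytochrome oxidase and ATP synthase. All the mRNAs outside complex I were thus at 0, and those of complex I were so only in part. Nuclear Cox4i1 and Atp5f1a were at 668 and 432 FPKM. A value of 0 in such a table can be a failed estimate, but the reason for these zeros was not tested.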
